A study of Drosophila melanogaster with 9 samples.

Results

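The genes described here encode the machinery that copies DNA and drives the cell cycle: origin recognition and licensing factors, replication fork proteins, cyclins, cyclin-dependent kinases (Cdks), Cdc genes and kinesins of the Klp series. They were chosen by symbol alone, as every gene with a named probe set whose symbol begins with Mcm, Orc, Cyc, Cdk, Cdc, RfC, RPA, RpA-, Pol of class A, D or E, Prim, Psf, Sld5 or Klp in the form that names a numbered or lettered family member. The rule gave 65 of 11982 genes, each with 1 probe set. A symbol does not fix a function, and the 65 include 8 cyclins and Cdks of transcription, the Hsp90 co-chaperone gene Cdc37, the splicing factor gene Cdc5 and the lipid flippase subunit gene Cdc50. Other genes of these families, with no probe set named here, were not analysed.

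The samples were mesodermal cells of Drosophila embryos at stage 11 to early stage 12, aged at 25 °C. Cells were sorted for green fluorescent protein that twi-GAL4 placed, through UAS-2EGFP, in cells expressing Twist, and all groups carried both insertions. One group was homozygous for Df(1)CHES-1-like1, a CHES-1-like null. Another was homozygous for the deficiency Df(3R)Exel6157, which the labels call a jumu null, with driver and reporter written on different homologues. Which other genes this deficiency removes was not tested. Loss of jumu and loss of any other gene in it cannot be told apart here. Controls carried neither deletion. Each group had 3 arrays. Nothing in the labels says that the replicates came from separate collections of embryos, so the p-values cover only how these arrays vary, and that variation may be technical. Values are log2 signals of Affymetrix probe sets. Changes are differences of log2 group means with the standard error (SE) of a limma fit over all 9 arrays. A change was called at a Benjamini-Hochberg adjusted p under 0.05 over 18769 probe sets.

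DNA replication is prepared when the origin recognition complex and Cdc6 load the Mcm helicase on chromatin. It starts when Cdc7 kinase, Cdc45 and the GINS complex of Psf and Sld5 subunits switch that helicase on. At the fork, RPA coats single strands, primase and polymerase alpha lay primers, RfC loads the sliding clamp, and polymerases delta and epsilon extend. Cyclin E with Cdk2 drives entry into S phase and B-type cyclins drive mitosis, where several kinesins build the spindle. In the Drosophila mesoderm, cells divide a few times after gastrulation before muscle and heart progenitors leave the cycle. Both jumu and CHES-1-like encode transcription factors of the Forkhead family and are known to act in the division of cardiac progenitors.

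The targeted genes were checked in every array. CHES-1-like read 12.03, 11.97 and 12.02 in controls, 3.87, 4.32 and 3.92 in its null and 11.38, 11.61 and 11.19 in jumu deficiency arrays. The jumu probe set read 10.54, 10.46 and 10.57 in controls, 10.66, 10.74 and 10.61 in CHES-1-like null arrays and 8.18, 8.21 and 7.99 in the deficiency. Both probe sets were lowest in the group named for that gene. As a background, the 125 probe sets of receptor genes of taste and smell had a 95th percentile of 5.28, and the jumu signal stayed above it. Of the 65 genes, CycJ, Klp59C and Klp59D lay below this background in every group, so a change in them would be hard to see.

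The 3 groups differed in other marker genes in the same arrays. In the CHES-1-like null, 11 of 11 epidermal, 11 of 15 neural, 4 of 4 tracheal and salivary gland, 2 of 4 endodermal, 4 of 8 germ cell and 4 of 8 maternal or early embryo markers were higher. There 2 germ cell markers were lower, 5 of 10 mesodermal markers were lower and 1 higher, and of 12 haemocyte markers 4 were higher and 3 lower. Under the jumu deficiency, 5 epidermal, 9 neural, 4 germ cell and 3 early markers were lower. Also in the deficiency, 3 neural and 1 early marker were higher, 7 mesodermal markers were higher and 2 lower, and 7 haemocyte markers were higher. Of 4 tracheal and salivary gland markers 1 was higher and 1 lower there, and 1 of 4 endodermal markers was higher. Of the 7622 genes with a mean signal above the background, 23.2% were higher and 27.4% lower in the null. In the deficiency 21.4% were higher and 30.2% lower. Some counts, such as those of tracheal and salivary gland markers in the deficiency, were near these shares. The markers grh, srp and osk each stand in 2 lists. The log2 of the summed linear signal of the epidermal markers was 13.29 to 13.32 in controls, 13.90 to 13.95 in the CHES-1-like null and 13.06 to 13.10 in jumu deficiency arrays. For neural markers it was 14.13 to 14.15, 14.39 to 14.47 and 13.84 to 14.09 in the same order. For germ cell markers it was 11.46 to 11.52, 11.83 to 11.94 and 11.16 to 11.21. That sum rests mainly on the brightest genes of its list, so it is no measure of germ cells alone. They were gcl, with group means of 10.417, 10.276 and 10.384, and ovo, with 9.771, 10.661 and 9.405. The sums were 9.56 to 9.63, 10.30 to 10.37 and 9.86 to 9.99 for tracheal and salivary gland, 12.74 to 12.80, 12.97 to 13.04 and 12.74 to 12.88 for endodermal, and 11.62 to 11.67, 12.01 to 12.08 and 11.45 to 11.55 for early embryo markers. Mesodermal markers summed to 14.22 to 14.26, 13.97 to 13.99 and 14.20 to 14.22, and haemocyte markers to 15.00 to 15.01, 14.87 to 14.90 and 15.42 to 15.46. These other sums also weigh bright genes most. The brightest mesodermal marker was lmd, with group means of 13.29, 12.837 and 12.999. The brightest neural marker was elav, which had an SD of 0.38 in the deficiency. The germ cell marker vas and the germ plasm gene osk lay below the background in every group, and no other marker did. Of 3 array control transcripts, actin and eIF-4a had a larger excess of 3′ over 5′ log2 signal in the jumu deficiency, at 1.26 ± 0.03 (SD, n = 3) for actin against 1.04 ± 0.01 in control and 0.94 ± 0.06 in CHES-1-like null arrays. The excess was 1.35 ± 0.03 against 1.07 ± 0.07 and 1.15 ± 0.05 for eIF-4a. For Gapdh the values of 0.42 ± 0.16, 0.34 ± 0.09 and 0.08 ± 0.25 in the same order overlapped within 1 SD. The part of these shifts in the results was not tested. In sorted bulk samples more cells of a dividing type and more RNA per cell cannot be told apart.

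In the CHES-1-like null most licensing and fork genes were higher than in control, while no cyclin or Cdk gene of transcription passed the test. Of the 65 genes 30 were higher and 4 lower, against 14.0% and 14.9% of all probe sets called higher and lower. The median change was 0.10, against 0.03 over all probe sets. Genes that are expressed are called more often, and among the 7622 genes with a mean signal above the background, 23.2% were higher and 27.4% lower. By arrays that did not overlap between the groups, 35 of the 65 were higher and 11 lower, against 22.3% and 20.4% of all probe sets. The largest rise was that of the clamp loader gene RfC38 and the largest fall that of the GINS gene Psf3, and no called change reached 2-fold.

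In the jumu deficiency 17 of the 65 genes were higher, 16 were lower and 32 were not called. The shares higher and lower were 14.8% and 17.3% of all probe sets and 21.4% and 30.2% of genes above the background. Both counts were near the shares of genes above the background. Their median change was 0.004, against 0.02 over all probe sets. Arrays did not overlap for 22 higher and 21 lower genes, against 23.7% and 23.1%. The split depends on the scaling between arrays. Of the called members 51.5% were higher as deposited, 61.8% after quantile normalization (21 higher and 13 lower) and 37.9% after centring each array on its median (11 higher and 18 lower). Both mutants were set against the same 3 control arrays, so their changes from control are not independent of each other.

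Compared directly, the jumu deficiency was lower than the CHES-1-like null for 26 of the 65 genes and higher for 8. The shares were 17.5% and 16.9% of all probe sets and 30.0% and 29.0% of genes above the background. The control arrays do not enter this difference but share in the estimate of its spread. With only the 2 groups compared, 23 were lower and 8 higher. The median difference was −0.10, against −0.004 over all probe sets. Non-overlapping arrays gave 30 lower and 11 higher, against 21.8% in each direction. The widest differences were those of RfC38 at −1.31 ± 0.05 and the licensing gene Cdc6 at −1.04 ± 0.05, the only called members past 2-fold in this comparison.

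**Figure D1:**
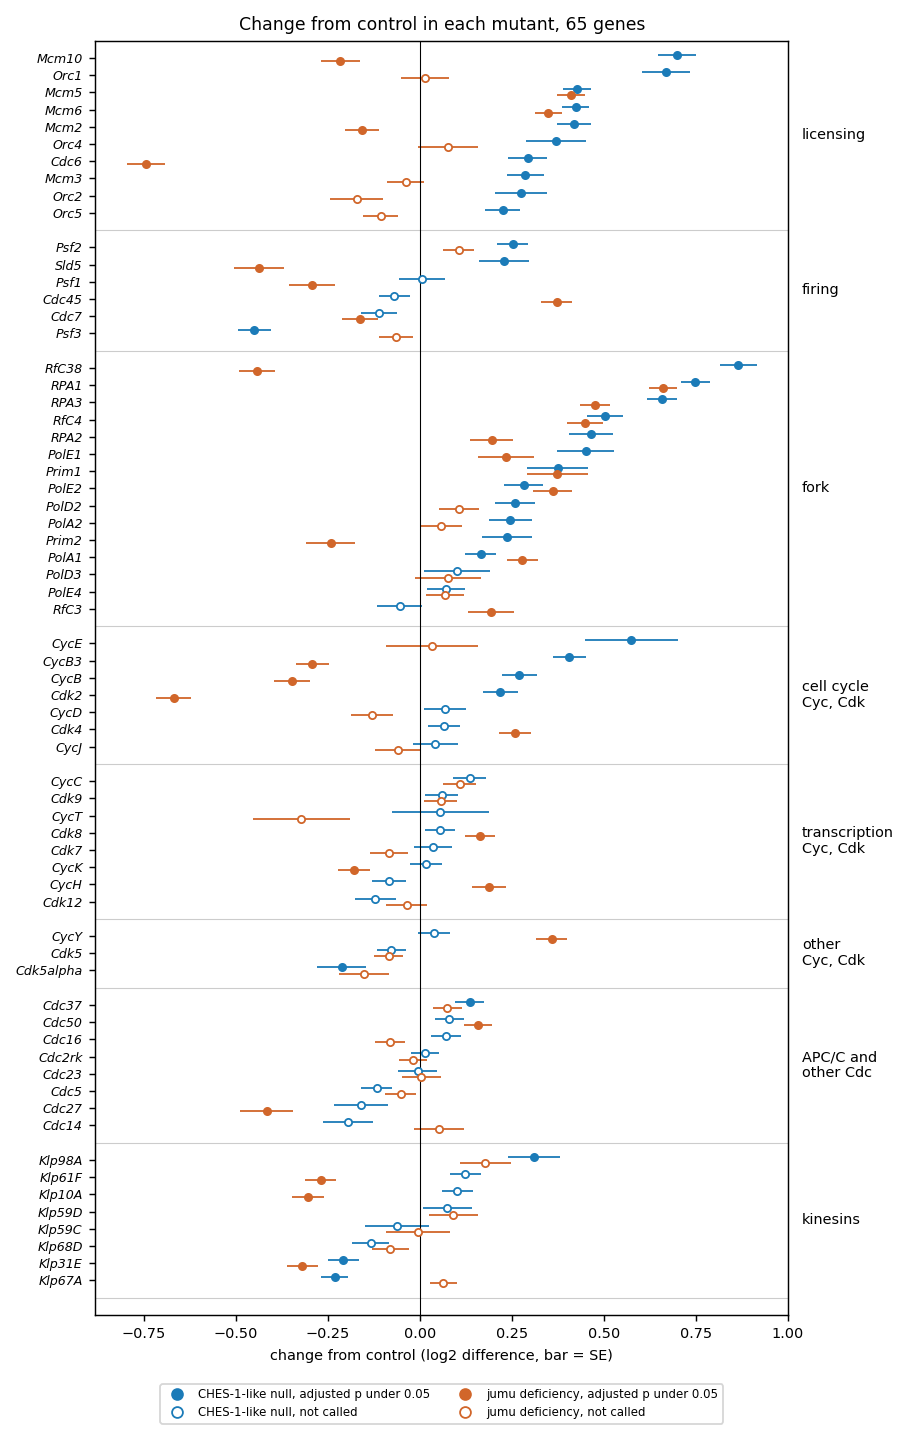
Change from control of the 65 genes in the CHES-1-like null (blue) and the jumu deficiency (orange) as log2 differences with SE, grouped by role; filled points passed an adjusted p of 0.05 and open points did not. Both mutants share the 3 control arrays, and the blue points of licensing genes are all filled and to the right of 0.

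All 10 genes grouped here under licensing, with Mcm10 of origin opening among them, rose in the CHES-1-like null. Their median change was 0.40, with no overlap between null and control arrays. The jumu deficiency had 2 of the 10 higher and 3 lower, near the 21.4% and 30.2% of genes above the background. Mcm10, which helps the helicase open the origin, read 8.34, 8.35 and 8.40 in controls, 9.07, 9.15 and 8.97 in CHES-1-like null arrays and 8.12, 8.16 and 8.17 in jumu deficiency arrays. It was above every control in every null array and below every control in every deficiency array, at 0.70 ± 0.05 (limma adjusted p = 1.1e-05) and −0.22 ± 0.05 (limma adjusted p = 0.0113) from control. Orc1, the largest subunit of the origin recognition complex, read 7.82, 7.66 and 7.61 in controls, 8.36, 8.35 and 8.38 in CHES-1-like null arrays and 7.63, 7.68 and 7.82 in jumu deficiency arrays. The null arrays stood clear of all others, by 0.67 ± 0.07 (limma adjusted p = 5.81e-05) over control, while deficiency and control arrays overlapped (0.01 ± 0.07).

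The other origin recognition genes rose by smaller amounts in the CHES-1-like null: Orc2 by 0.28 ± 0.07, Orc4 by 0.37 ± 0.08 and Orc5 by 0.23 ± 0.05. None of the 4 Orc genes passed the test in the jumu deficiency, where their changes were between −0.17 and 0.08. Between the mutants all 4 were lower in the deficiency, at −0.66 ± 0.07 for Orc1, −0.45 ± 0.07 for Orc2, −0.29 ± 0.08 for Orc4 and −0.33 ± 0.05 for Orc5. The Orc2 rise in the null was lost after median centring and without null replicate 1 or control replicates 2 or 3, and the count of 10 was then 9. The direct difference of Orc4 was lost without null replicates 1 or 2 or deficiency replicates 1 or 3.

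Cdc6, the ATPase that brings the Mcm helicase to the origin recognition complex, read 9.73, 9.77 and 9.65 in controls, 10.05, 10.04 and 9.94 in CHES-1-like null arrays and 8.92, 8.96 and 9.04 in jumu deficiency arrays. The 3 groups did not overlap, with the null highest and the deficiency lowest. The gene rose by 0.29 ± 0.05 (limma adjusted p = 0.00218) in the null and changed by −0.74 ± 0.05 (limma adjusted p = 5.18e-06) in the deficiency, to 59.7% of the control signal, the lowest value of any of the 65 genes in that mutant.

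The helicase subunits did not move as a unit in the jumu deficiency. Mcm5 read 9.20, 9.14 and 9.17 in controls, 9.62, 9.60 and 9.56 in CHES-1-like null arrays and 9.59, 9.58 and 9.57 in jumu deficiency arrays. Every mutant array was above every control array, and the gene rose in the null and the deficiency by 0.43 ± 0.04 (limma adjusted p = 3.29e-05) and 0.41 ± 0.04 (limma adjusted p = 3.45e-05). Mcm6 did likewise, with 0.42 ± 0.04 in the null and 0.35 ± 0.04 in the deficiency. Mcm2 rose by 0.42 ± 0.05 in the null but changed by −0.16 ± 0.05 (limma adjusted p = 0.0274) in the deficiency. Mcm3 rose by 0.29 ± 0.05 in the null and did not pass in the deficiency (−0.04 ± 0.05). These are subunits of 1 ring. The direct comparison gave −0.58 ± 0.05 for Mcm2 and −0.33 ± 0.05 for Mcm3, both called. It gave −0.015 ± 0.04 (limma adjusted p = 0.819) for Mcm5 and −0.07 ± 0.04 (limma adjusted p = 0.157) for Mcm6. The Mcm2 call in the deficiency was lost after quantile normalization and without deficiency replicates 1 or 2 or any 1 control array.

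**Figure D2:**
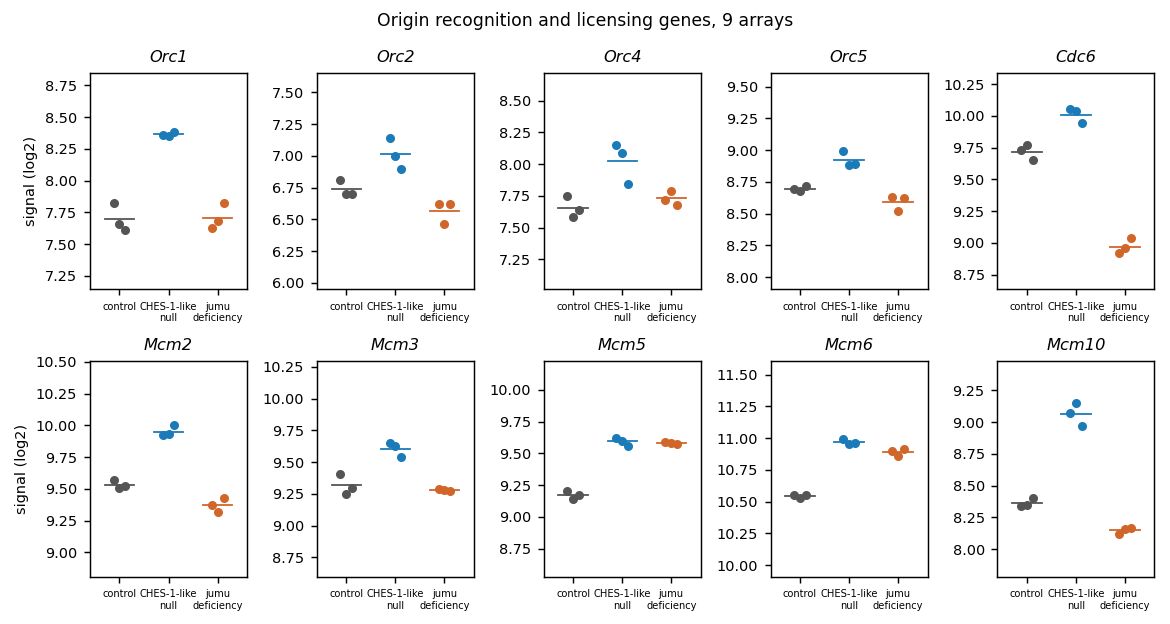
Log2 signal of the 10 licensing genes in each of the 9 arrays, with points for arrays and a line for the group mean; every panel spans the same range of log2 units around its own middle. The CHES-1-like null arrays lie above the control arrays in all panels. The jumu deficiency arrays lie above control for Mcm5 and Mcm6 and below for Cdc6, Mcm10, Mcm2, Orc2 and Orc5. The changes of Orc2 and Orc5 in the deficiency were not called.

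Origin firing genes went in both directions in each mutant, with 2 of 6 higher and 1 lower in CHES-1-like null cells. The jumu deficiency had 1 higher and 3 lower. Of genes above the background, 23.2% were higher and 27.4% lower in the null, and 21.4% and 30.2% in the deficiency. The change of firing genes was not uniform even among the 4 subunits of GINS, a complex in which each subunit is present once. Psf3 read 9.16, 9.17 and 9.05 in controls, 8.69, 8.71 and 8.64 in CHES-1-like null arrays and 9.09, 9.04 and 9.07 in jumu deficiency arrays. It was below all other arrays in the CHES-1-like null, at −0.45 ± 0.05 (limma adjusted p = 7.82e-05), and overlapped control in the deficiency (−0.06 ± 0.05). Sld5 read 7.78, 7.82 and 7.75 in controls, 7.92, 7.99 and 8.13 in CHES-1-like null arrays and 7.22, 7.40 and 7.41 in jumu deficiency arrays. Its arrays were highest in the null and lowest in the deficiency without overlap, with 0.23 ± 0.07 (limma adjusted p = 0.0321) in the null and −0.44 ± 0.07 (limma adjusted p = 0.000887) in the deficiency. Psf2 rose by 0.25 ± 0.04 in the null, where the deficiency gave 0.11 ± 0.04 (limma adjusted p = 0.0873). Psf1 changed by −0.29 ± 0.06 (limma adjusted p = 0.00528) in the deficiency and by 0.01 ± 0.06 in the null. In the direct comparison Psf1, Psf2 and Sld5 were lower in the deficiency and Psf3 was higher, by 0.39 ± 0.05 (limma adjusted p = 0.000133). The Sld5 rise in the null was lost without null replicates 2 or 3 or any 1 control array, and the direct Psf2 difference with quantile normalization, with only the 2 groups compared and without null replicates 1 or 2 or deficiency replicates 2 or 3.

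Cdc45, which joins Mcm and GINS in the active helicase, read 8.10, 8.13 and 8.11 in controls, 8.08, 8.05 and 8.0 in CHES-1-like null arrays and 8.50, 8.43 and 8.52 in jumu deficiency arrays. The deficiency arrays were above all others, at 0.37 ± 0.04 (limma adjusted p = 0.00012) from control and 0.44 ± 0.04 (limma adjusted p = 2.84e-05) from the null. Cdc7, the kinase that triggers firing, changed by −0.16 ± 0.05 (limma adjusted p = 0.0319) in the deficiency and −0.11 ± 0.05 (limma adjusted p = 0.127) in the null. The former call was lost with quantile normalization, with only the 2 groups compared and without deficiency replicate 2 or any 1 control array.

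Fork genes were mostly above control in each mutant, with calls less secure in the jumu deficiency. Of 15 polymerase, primase, clamp loader and single-strand binding genes, 12 rose and 0 fell in CHES-1-like null cells. The shares of genes above the background were 23.2% and 27.4% there, and the median change of the 15 was 0.28. Here limma gave 0 lower at an unadjusted p under 0.05 as well. In the jumu deficiency 9 rose and 2 fell, against 21.4% and 30.2% of genes above the background. The median change of the fork genes was 0.195 there, and after median centring 6 rose and 2 fell. With the replicate number as a block 7 rose and 2 fell. Without deficiency replicates 2 or 3 or any 1 control array, 6 rose and 1 or 2 fell. The genes that did not pass in the null were PolD3, PolE4 and RfC3, and RfC3 was the only fork gene called higher in the deficiency than in the null.

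The RPA genes, whose products form a single-strand binding trimer, rose together. RPA1 read 10.11, 10.04 and 10.03 in controls, 10.82, 10.79 and 10.81 in CHES-1-like null arrays and 10.73, 10.70 and 10.73 in jumu deficiency arrays. Every mutant array was above every control array, and the gene rose by 0.75 ± 0.04 (limma adjusted p = 1.22e-06) and 0.66 ± 0.04 (limma adjusted p = 1.63e-06). RPA3 read 9.73, 9.81 and 9.78 in controls, 10.43, 10.40 and 10.47 in CHES-1-like null arrays and 10.22, 10.26 and 10.26 in jumu deficiency arrays. It rose by 0.66 ± 0.04 (limma adjusted p = 3.49e-06) and 0.48 ± 0.04 (limma adjusted p = 2.04e-05). RPA2 read 9.11, 9.12 and 9.07 in controls, 9.66, 9.61 and 9.43 in CHES-1-like null arrays and 9.31, 9.29 and 9.29 in jumu deficiency arrays. Its rises were 0.47 ± 0.06 (limma adjusted p = 0.000278) and 0.20 ± 0.06 (limma adjusted p = 0.0309). The order was the same for all 3 genes, with the null highest, the deficiency between and control lowest, and no arrays overlapped. That order held for 5 of the 65 genes and for 1.71% of all probe sets. Any order of the 3 groups without overlap held for 25 of the 65 genes and 20.0% of all probe sets. Dim probe sets are among these shares, and the share of genes above the background was not counted. The null exceeded the deficiency past the threshold for RPA2 and RPA3 but not RPA1 (−0.09 ± 0.04, limma adjusted p = 0.119). RPA2 in the deficiency was the least secure of these calls, being lost after median centring and without any 1 deficiency or control array.

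The 3 measured clamp loader genes behaved in 3 ways. RfC38 read 8.68, 8.57 and 8.61 in controls, 9.48, 9.49 and 9.48 in CHES-1-like null arrays and 8.09, 8.21 and 8.23 in jumu deficiency arrays. The 3 groups were far apart, with the null at 182% of control by 0.87 ± 0.05 (limma adjusted p = 2.37e-06) and the deficiency at 73.5% by −0.44 ± 0.05 (limma adjusted p = 0.000125). Against each other the mutants differed by −1.31 ± 0.05 (limma adjusted p = 8.08e-08), so the deficiency held 40.4% of the null's signal. RfC4 read 8.52, 8.55 and 8.51 in controls, 9.08, 9.06 and 8.96 in CHES-1-like null arrays and 8.96, 8.93 and 9.04 in jumu deficiency arrays. It was above control in both mutants, at 0.50 ± 0.05 (limma adjusted p = 5.71e-05) and 0.45 ± 0.05 (limma adjusted p = 0.000103). RfC3 read 8.56, 8.58 and 8.55 in controls, 8.58, 8.57 and 8.38 in CHES-1-like null arrays and 8.68, 8.80 and 8.79 in jumu deficiency arrays. Null and control arrays overlapped (−0.06 ± 0.06), and the deficiency was higher by 0.19 ± 0.06 (limma adjusted p = 0.0384). The RfC3 call was lost after median centring, with the replicate block and without deficiency replicates 2 or 3 or any 1 control array.

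Primase and polymerase genes also differed among themselves. Prim1 read 7.10, 6.97 and 7.06 in controls, 7.49, 7.51 and 7.26 in CHES-1-like null arrays and 7.41, 7.30 and 7.54 in jumu deficiency arrays. Both mutants were above control, at 0.38 ± 0.08 (limma adjusted p = 0.00758) and 0.37 ± 0.08 (limma adjusted p = 0.00729). Prim2, its partner subunit, rose by 0.24 ± 0.07 (limma adjusted p = 0.0254) in the null but changed by −0.24 ± 0.07 (limma adjusted p = 0.0209) in the deficiency. The mutants differed by −0.48 ± 0.07 (limma adjusted p = 0.000359). PolE2 read 7.08, 7.02 and 7.02 in controls, 7.33, 7.43 and 7.23 in CHES-1-like null arrays and 7.39, 7.41 and 7.41 in jumu deficiency arrays. It rose by 0.28 ± 0.05 (limma adjusted p = 0.00293) and 0.36 ± 0.05 (limma adjusted p = 0.000623). The catalytic genes PolE1 and PolA1 rose in the null by 0.45 ± 0.08 and 0.17 ± 0.04 and in the deficiency by 0.23 ± 0.08 (limma adjusted p = 0.0451) and 0.28 ± 0.04. PolA2 and PolD2 rose in the null by 0.25 ± 0.06 and 0.26 ± 0.06 and did not pass in the deficiency (0.06 ± 0.06 and 0.11 ± 0.06). Several of these calls were lost under other settings. That of Prim2 in the null was lost after median centring, with only the 2 groups compared and without null replicate 1 or control replicates 2 or 3. In the deficiency it was lost with quantile normalization and without deficiency replicate 2 or control replicates 1 or 3. That of PolE1 in the deficiency was lost after median centring, with the replicate block, with only the 2 groups compared and in 7 of 9 fits that left out 1 array, all but those without null replicate 1 or deficiency replicate 1. That of PolA1 in the null was lost after median centring and without control replicate 2. The direct difference of PolA2 was lost with quantile normalization, with the replicate block and without null replicates 2 or 3 or deficiency replicates 1 or 3.

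**Figure D3:**
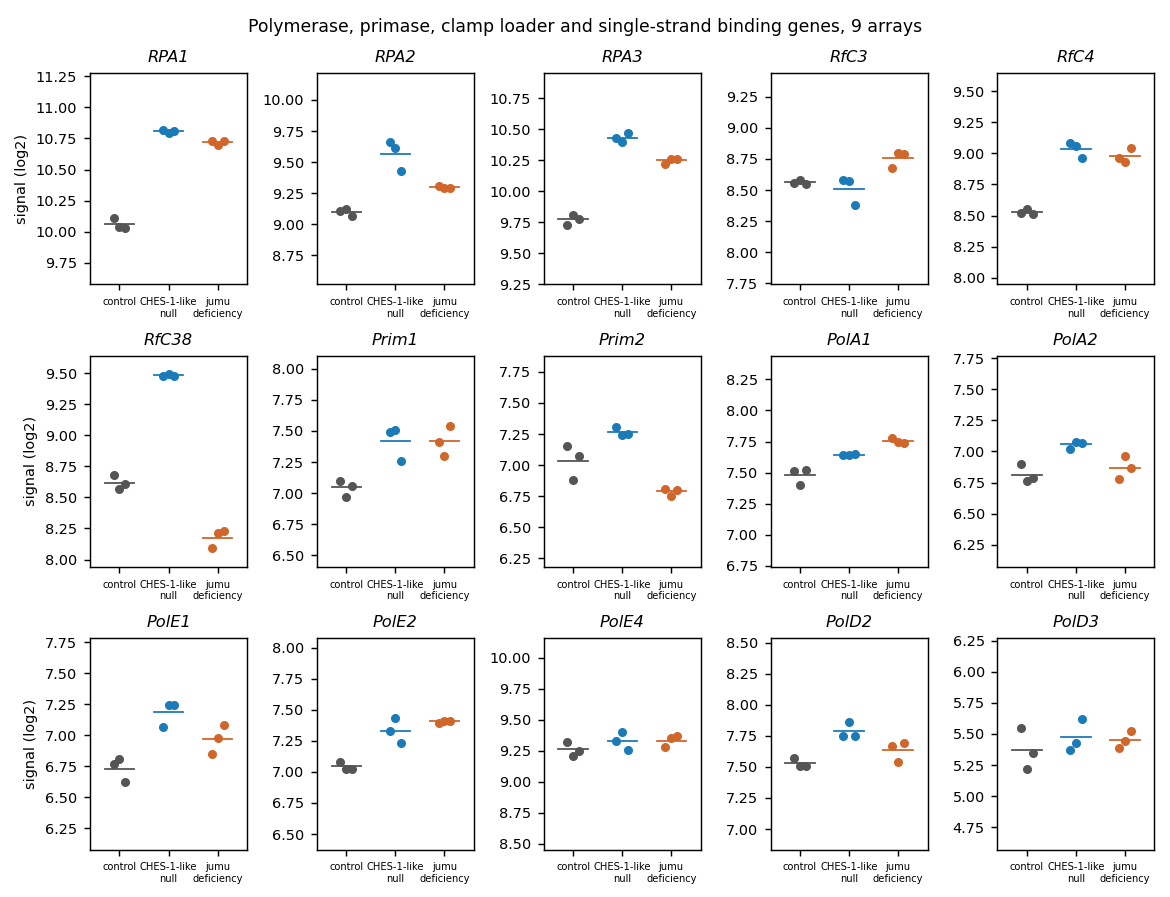
Log2 signal of the 15 fork genes in each of the 9 arrays, with points for arrays and a line for the group mean; every panel spans the same range of log2 units around its own middle. RPA1, RPA2, RPA3, RfC4, Prim1, PolA1, PolE1 and PolE2 lie above control in both mutants. RfC38 and Prim2 lie above control in the CHES-1-like null and below it in the jumu deficiency.

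Most of the cyclins and Cdks of the cell cycle stood higher in the CHES-1-like null, compared with the jumu deficiency. Of 7 genes, 4 rose and 0 fell in the null (limma, also 0 at an unadjusted p under 0.05), and 1 rose and 3 fell in the deficiency. Of genes above the background, 23.2% rose and 27.4% fell in the null, and 21.4% and 30.2% in the deficiency. Directly compared, 5 of 7 were lower in the deficiency and 1 was higher, against 30.0% and 29.0% of genes above the background. The median difference of the 7 was −0.54. The counts of these 7 genes were the same under quantile normalization and median centring.

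Cdk2, the S phase kinase, read 9.44, 9.44 and 9.37 in controls, 9.72, 9.59 and 9.60 in CHES-1-like null arrays and 8.76, 8.71 and 8.77 in jumu deficiency arrays. All deficiency arrays were below all others, at −0.67 ± 0.05 (limma adjusted p = 5.58e-06), which is 62.9% of control. The null was higher by 0.22 ± 0.05 (limma adjusted p = 0.00679). CycE, its cyclin partner, read 9.41, 9.23 and 9.50 in controls, 9.90, 10.11 and 9.85 in CHES-1-like null arrays and 9.37, 9.67 and 9.18 in jumu deficiency arrays. The null arrays were above all others by 0.57 ± 0.13 (limma adjusted p = 0.00697) over control. The deficiency arrays were spread over 0.49 on the log2 scale around the control values (0.03 ± 0.13, limma adjusted p = 0.878). The direct difference of CycE was −0.54 ± 0.13 (limma adjusted p = 0.00759).

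CycB, the main mitotic cyclin gene measured here, read 12.54, 12.53 and 12.55 in controls, 12.74, 12.89 and 12.81 in CHES-1-like null arrays and 12.23, 12.18 and 12.17 in jumu deficiency arrays. The groups did not overlap, with 0.27 ± 0.05 (limma adjusted p = 0.00201) in the null and −0.35 ± 0.05 (limma adjusted p = 0.000407) in the deficiency. CycB3 read 11.50, 11.55 and 11.47 in controls, 11.92, 11.91 and 11.91 in CHES-1-like null arrays and 11.24, 11.15 and 11.26 in jumu deficiency arrays. The order was the same, with 0.41 ± 0.04 (limma adjusted p = 0.000117) and −0.29 ± 0.04 (limma adjusted p = 0.000803). The order of deficiency lowest, control between and null highest, without overlap in any pair, held for 13 of the 65 genes and for 5.55% of all probe sets. That share too includes dim probe sets, and any order without overlap held for 25 of the 65 genes and 20.0% of all probe sets. The 13 were Cdc6, Cdk2, CycB, CycB3, Klp10A, Klp61F, Mcm10, Mcm2, Orc2, Orc5, Prim2, RfC38 and Sld5.

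Cdk4, the kinase that with cyclin D promotes growth and division in Drosophila, went the other way. It read 9.51, 9.55 and 9.46 in controls, 9.57, 9.54 and 9.60 in CHES-1-like null arrays and 9.74, 9.74 and 9.82 in jumu deficiency arrays. The deficiency arrays were the highest, by 0.26 ± 0.04 (limma adjusted p = 0.00157) over control and 0.20 ± 0.04 (limma adjusted p = 0.00687) over the null. CycD, its partner, did not pass against control in either mutant (0.07 ± 0.06 and −0.13 ± 0.06). It differed between the mutants by −0.20 ± 0.06 (limma adjusted p = 0.0248), a call lost with only the 2 groups compared and without null replicate 2 or deficiency replicates 1 or 3.

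Of the 8 measured kinesin genes, the CHES-1-like null had 1 higher and 2 lower, against 23.2% and 27.4% of genes above the background. In this role limma called 0 higher (1 at an unadjusted p under 0.05) and 3 lower in the jumu deficiency. The shares of genes above the background were 21.4% and 30.2% there. Klp10A, a microtubule depolymerase of spindle poles and centromeres, read 9.88, 9.90 and 9.86 in controls, 10.04, 9.97 and 9.94 in CHES-1-like null arrays and 9.54, 9.59 and 9.61 in jumu deficiency arrays. The deficiency was lowest, at −0.30 ± 0.04 (limma adjusted p = 0.000502), and the null did not pass (0.10 ± 0.04, limma adjusted p = 0.113), although its arrays were all above control. Klp61F, the bipolar motor that pushes spindle poles apart, changed by −0.27 ± 0.04 (limma adjusted p = 0.00107) in the deficiency and by 0.12 ± 0.04 (limma adjusted p = 0.0593) in the null. Klp67A, which limits spindle length, had the opposite order and read 9.96, 9.93 and 9.93 in controls, 9.73, 9.72 and 9.68 in CHES-1-like null arrays and 10.01, 10.00 and 10.00 in jumu deficiency arrays. Its null arrays were below all others, by −0.23 ± 0.04 (limma adjusted p = 0.000999), and the deficiency was not called against control (0.06 ± 0.04).

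Klp31E, a kinesin family gene, read 9.59, 9.52 and 9.59 in controls, 9.33, 9.36 and 9.39 in CHES-1-like null arrays and 9.24, 9.21 and 9.29 in jumu deficiency arrays. Both mutants were below control without overlap, at −0.21 ± 0.04 (limma adjusted p = 0.00469) and −0.32 ± 0.04 (limma adjusted p = 0.000337). Klp98A, a motor of endosomes, rose by 0.31 ± 0.07 (limma adjusted p = 0.00835) in the null, and in the deficiency gave 0.18 ± 0.07 (limma adjusted p = 0.0848). Klp68D, a subunit of the kinesin of axonal and ciliary transport, passed in no comparison, nor did the dim genes Klp59C and Klp59D.

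**Figure D4:**
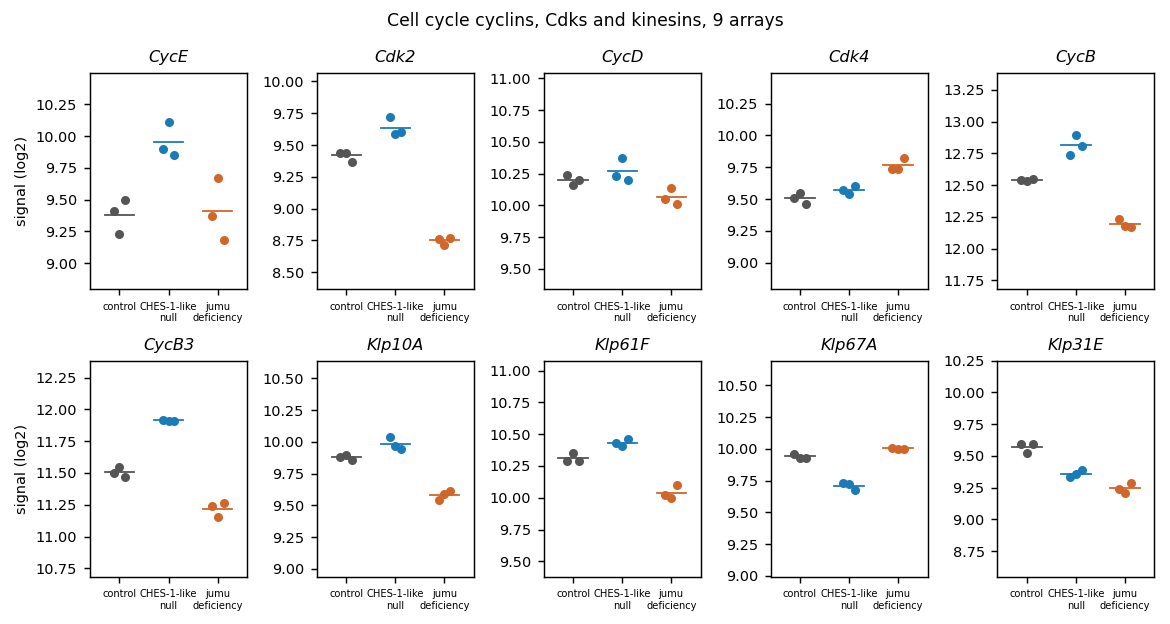
Log2 signal of 6 cell cycle cyclin and Cdk genes and 4 kinesin genes in each of the 9 arrays, with points for arrays and a line for the group mean; every panel spans the same range of log2 units around its own middle. Cdk2, CycB, CycB3, CycD, Klp10A, Klp31E and Klp61F are lowest in the jumu deficiency, Cdk4 is highest there, and Klp67A is lowest in the CHES-1-like null. The deficiency was not called against control for CycD or against the null for Klp31E.

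Cyclins and Cdks of transcription act on RNA polymerase II or its Mediator. Of 8 genes, limma called 0 in the CHES-1-like null (1 at an unadjusted p under 0.05), against 50.5% of genes above the background. With quantile normalization 2 of the 8 were higher in the null. The smallest p was that of CycC, the Mediator cyclin. CycC read 9.43, 9.50 and 9.42 in controls, 9.63, 9.60 and 9.53 in CHES-1-like null arrays and 9.55, 9.53 and 9.61 in jumu deficiency arrays. Every null array was above every control array, with a change of 0.14 ± 0.05 (limma adjusted p = 0.0555). In the jumu deficiency 2 of the 8 rose and 1 fell, against 21.4% and 30.2% of genes above the background. Median centring left 0 higher and 2 lower. CycH, which with Cdk7 activates other Cdks, read 9.69, 9.72 and 9.68 in controls, 9.68, 9.61 and 9.55 in CHES-1-like null arrays and 9.90, 9.92 and 9.83 in jumu deficiency arrays. Its deficiency arrays were highest, by 0.19 ± 0.05 (limma adjusted p = 0.012) over control and 0.27 ± 0.05 (limma adjusted p = 0.00121) over the null. CycK, the partner of Cdk12, read 10.48, 10.52 and 10.43 in controls, 10.48, 10.47 and 10.53 in CHES-1-like null arrays and 10.33, 10.24 and 10.33 in jumu deficiency arrays. It changed by −0.18 ± 0.04 (limma adjusted p = 0.0119) in the deficiency, a call lost without control replicate 2.

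The Mediator kinase gene Cdk8 rose by 0.16 ± 0.04 (limma adjusted p = 0.0127) in the deficiency, a call lost after median centring and without control replicate 2. Cdk7, Cdk9 and Cdk12 passed in no comparison. CycT, the cyclin of Cdk9, read 8.86, 9.29 and 8.66 in the deficiency against 9.30, 9.18 and 9.29 in controls. Its change of −0.32 ± 0.13 (limma adjusted p = 0.0932) was not called. The deficiency arrays spanned 0.62 for CycT against 0.12 in controls, and deficiency replicate 2 was the highest of its group for CycE and CycT alike.

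Among the remaining cyclins, Cdks and Cdc genes, CycY, a membrane-bound cyclin, read 10.10, 10.03 and 10.12 in controls, 10.09, 10.17 and 10.11 in CHES-1-like null arrays and 10.48, 10.42 and 10.43 in jumu deficiency arrays. The deficiency was above both other groups by 0.36 ± 0.04 (limma adjusted p = 0.000183) over control. The activator gene Cdk5alpha read 7.05, 6.81 and 7.06 in controls, 6.80, 6.73 and 6.75 in CHES-1-like null arrays and 6.85, 6.83 and 6.78 in jumu deficiency arrays. It changed by −0.21 ± 0.07 (limma adjusted p = 0.0413) in the null, a call lost in 8 of 9 fits that left out 1 array (all but the fit without control replicate 2), with quantile normalization and with only the 2 groups compared. Cdk5 itself passed nowhere. Of 3 genes of the anaphase promoting complex, the ubiquitin ligase that ends mitosis, Cdc27 alone changed from control. Cdc27 read 10.45, 10.43 and 10.39 in controls, 10.23, 10.29 and 10.27 in CHES-1-like null arrays and 9.90, 10.19 and 9.92 in jumu deficiency arrays. The change was −0.42 ± 0.07 (limma adjusted p = 0.00186) in the deficiency and −0.16 ± 0.07 (limma adjusted p = 0.142) in the null, and deficiency replicate 2 was the highest of its group here too. Cdc16 read 9.33, 9.26 and 9.25 in controls, 9.39, 9.33 and 9.32 in CHES-1-like null arrays and 9.20, 9.19 and 9.20 in jumu deficiency arrays. It differed between the mutants by −0.15 ± 0.04 (limma adjusted p = 0.0173) and was not called against control. That call was lost without null replicate 1. Cdc23 passed in no comparison.

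Cdc14, a phosphatase gene, read 8.10, 8.0 and 7.85 in controls, 7.75, 7.88 and 7.72 in CHES-1-like null arrays and 8.02, 8.06 and 8.02 in jumu deficiency arrays. It was higher in the deficiency than in the null by 0.25 ± 0.07 (limma adjusted p = 0.0184), a call lost without null replicates 1 or 3 or deficiency replicate 2. Cdc37 read 10.86, 10.90 and 10.86 in controls, 11.02, 10.98 and 11.02 in CHES-1-like null arrays and 10.94, 10.91 and 10.98 in jumu deficiency arrays. It rose by 0.14 ± 0.04 (limma adjusted p = 0.0277) in the null, a call lost after median centring, with the replicate block, without null replicates 1 or 3 and without any 1 control array. Cdc50 rose by 0.16 ± 0.04 (limma adjusted p = 0.0119) in the deficiency and lost its call after median centring. Cdc5 and the Cdc2-related kinase gene Cdc2rk passed in no comparison.

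**Figure D5:**
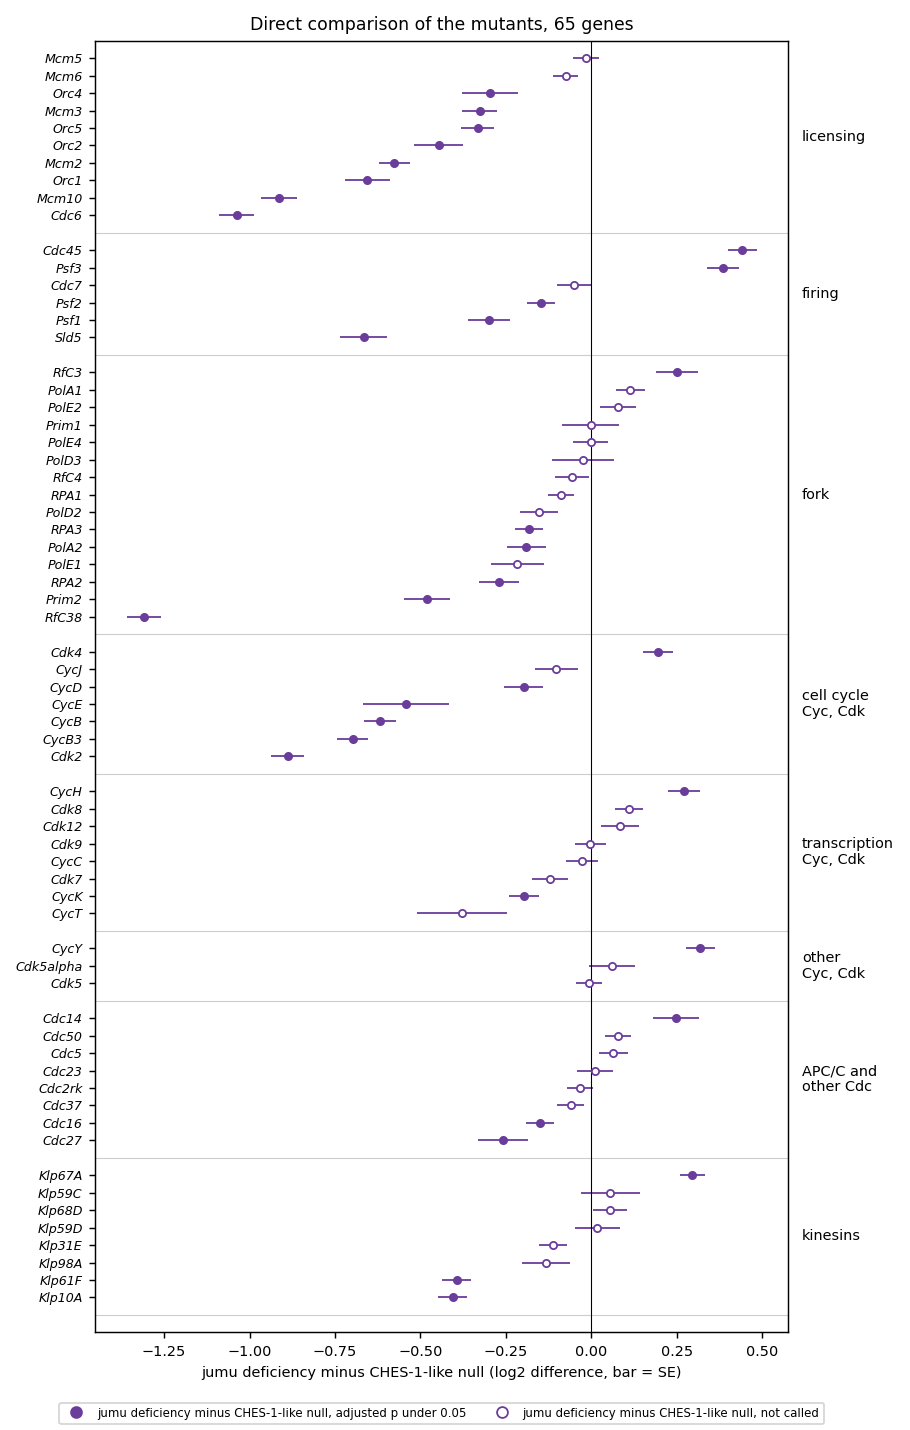
Difference between the jumu deficiency and the CHES-1-like null for the 65 genes as log2 differences with SE, grouped by role; filled points passed an adjusted p of 0.05. Licensing genes lie at or left of 0, from Cdc6 at −1.04 to Mcm5 at −0.015, and RfC38 at −1.31 is the lowest of all.

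Other genes of the cell cycle and replication, outside the symbol rule, were counted as a list of 39 measured genes. The CHES-1-like null had 24 of them higher and 3 lower, with a median of 0.21, against 23.2% and 27.4% of genes above the background. In the jumu deficiency 8 rose and 18 fell, with a median of −0.08, against 21.4% and 30.2%, so the share that rose was near the background. Between the mutants 22 were lower and 6 higher in the deficiency, against 30.0% and 29.0%. The list was drawn up with earlier results of these data known and is not independent evidence. The genes of it named here were chosen after their values were seen, with some other listed genes of like kind beside them.

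The 3 listed genes of nucleotide supply for S phase were higher than control in each mutant. The thymidylate synthase gene Ts rose by 0.62 ± 0.07 in the null and 0.48 ± 0.07 in the deficiency, dUTPase by 0.54 ± 0.04 and 0.23 ± 0.04, and the ribonucleotide reductase gene RnrL by 0.48 ± 0.05 and 0.20 ± 0.05. PCNA, the sliding clamp that RfC loads, rose by 0.50 ± 0.04 (limma adjusted p = 2.63e-05) in the null and was not called in the deficiency (−0.08 ± 0.04, limma adjusted p = 0.211). The listed replication genes DNAlig1 and Fen1 were called in neither mutant. They gave 0.09 ± 0.06 and −0.09 ± 0.08 in the null and −0.07 ± 0.06 and 0.16 ± 0.08 in the deficiency. The condensin genes glu and SMC2 rose by 0.51 ± 0.04 and 0.34 ± 0.04 in the null and changed by −0.69 ± 0.04 and −0.78 ± 0.04 in the deficiency. The Cdk subunit gene Cks30A gave 0.34 ± 0.05 in the null and −0.81 ± 0.05 in the deficiency, both called. Its relative Cks85A gave −0.24 ± 0.04, called, and 0.11 ± 0.04, not called. Of the 4 listed spindle checkpoint genes, mad2 and Bub3 rose in the null, by 0.42 ± 0.05 and 0.21 ± 0.04, while Mad1 and Bub1 were not called, at −0.05 ± 0.04 and −0.05 ± 0.04. In the deficiency all 4 fell, with −0.33 ± 0.05 for mad2, −0.22 ± 0.04 for Bub3, −0.15 ± 0.04 for Mad1 and −0.19 ± 0.04 for Bub1. Of the 2 listed activators of the anaphase promoting complex, fzr, which keeps cells in G1, changed by −0.30 ± 0.05 in the null and −0.26 ± 0.05 in the deficiency, both called. The mitotic activator gene fzy changed by 0.15 ± 0.04 and −0.30 ± 0.04, both called.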

How the data were processed

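Total RNA of sorted cells, about 2 to 5 µg per sample per the labels' protocols, was labelled with biotin and hybridised to Affymetrix Drosophila arrays, 1 sample an array. The authors deposited 1 log2 signal for each probe set, already normalized between arrays by the authors, as their nearly equal medians of 5.41 to 5.50 show. The R package affy is named per the submitters' processing notes, while its version, background correction and summary method are left unstated there. A summarised signal flattens near background and near saturation, so a dim gene's change is understated, and no gene's level was set against another's. Precision is limited by how many arrays there were.

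The array holds 18952 probe sets, of which 183 controls were left out of the tests. Probe sets with 1 gene in the platform annotation (13647) were named, those with several (402) or none listed (4720) were not, and 13544 took their current symbol from Release 6 plus ISO1 MT by gene identifier. A gene with several probe sets is represented by the one with the highest mean signal, and each of the 65 genes had 1. No sequence tables were used. The limma package (3.58.1, with R 4.3.3) gave each group a mean by lmFit, followed by eBayes, from all 9 arrays, with 6 residual degrees of freedom, and p-values were adjusted over all probe sets tested. The fit was tested on simulated data. Arrays of a group correlated at 0.9979 or more and arrays of different groups at 0.9927 or less.

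Array values are given for, per comparison, up to 8 members per direction of largest called change without overlap, the member of smallest p in each role, and CycB, CycE and Cdk2, with other members named by their fitted change. Some members outside this rule, such as CycT, had array values given after they were seen. The members and all lists were chosen with earlier results of these data known. Marker lists covered haemocytes, germ cells, mesoderm, epidermis, endoderm, trachea with salivary gland, neural cells and early embryo transcripts. Alternatives were quantile normalization, median centring, leaving out the lower 40% of probe sets, a variance trend with robust estimation, only the arrays of both groups in a comparison, the replicate number as a block, the mean of a gene's probe sets, platform symbols, a threshold of 0.01, and leaving out each array.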

Additional observations from a re-analysis of the deposited data

How the results depend on the processing

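No call of the 65 genes turned its direction under any alternative run. In the CHES-1-like null the number of members higher, 30, was 32 with quantile normalization, 26 with median centring and 25 to 31 when 1 array was left out, and the number lower, 4, was 7 without the lower 40% of probe sets and 3 to 5 when 1 array was left out. In the jumu deficiency the 17 higher became 11 with median centring and 11 at a threshold of 0.01, and 13 to 17 when 1 array was left out, while the 16 lower were 13 to 16. Between the mutants the 8 higher were 7 to 8 and the 26 lower were 22 to 27 when 1 array was left out. Of the calls against control, 28 of 34 (CHES-1-like null) and 25 of 33 (jumu deficiency) were kept, as were 27 of 34 between the mutants, in all 9 fits that left out 1 array. Across all probe sets, median centring gave 1820 higher in the jumu deficiency against 2781, so that 31.4% of calls were higher against 46.1%, and for the CHES-1-like null 39.4% against 48.5%. Matching members by the platform symbol gave the same 65 genes. The replicate number does not pair the samples: correlations of the deviations from group means in the 9 same-numbered pairs ran from −0.136 to 0.15, and with the replicate block the CHES-1-like null had 29 members higher and 4 lower, with 15 and 16 in the jumu deficiency, and 8 and 25 between the mutants. The cause of these differences was not tested. Dim signal limits CycJ, Klp59C and Klp59D.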

Other observations

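Some of the 65 genes lie next to each other in the annotation, which was used only for the order of genes. RPA1 and Mcm2 are adjacent on chromosome 3R with no protein-coding gene between them. RPA1 changed by 0.75 ± 0.04 (SE) in CHES-1-like null and 0.66 ± 0.04 in jumu deficiency arrays, and Mcm2 by 0.42 ± 0.05 and −0.16 ± 0.05. Klp31E and RfC3 are adjacent on chromosome 2L, and in the jumu deficiency Klp31E changed by −0.32 ± 0.04 while RfC3 changed by 0.19 ± 0.06. Klp61F and Psf1, on chromosome 3L with 1 protein-coding gene between them, changed by −0.27 ± 0.04 and −0.29 ± 0.06 in that mutant and by 0.12 ± 0.04 and 0.01 ± 0.06 in the CHES-1-like null, where neither was called.

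Mcm5 was the member nearest to jumu, with 38 protein-coding genes between them, and it was higher in the jumu deficiency. On chromosome X, which holds CHES-1-like, the nearest member was Mcm6, with 83 protein-coding genes between them. By chromosome, 11 of 13 members on 3R rose in the CHES-1-like null, 7 of 18 on 3L, 6 of 14 on 2L, 3 of 10 on 2R and 3 of 10 on X. Over all genes with a named probe set, 522 of 2974 on 3R, 442 of 2344 on 3L, 371 of 2205 on 2L, 369 of 2427 on 2R and 317 of 1873 on X were higher. The difference between chromosomes was not tested.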
